A study of Homo sapiens with 10 samples.

Results

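The genes described here belong to the thioredoxin and peroxiredoxin systems and to the pathways that supply NADPH to them. The others are further antioxidant genes and those of the phagocyte NADPH oxidase, which produces superoxide. All genes were chosen by name, and 36 were listed. A gene entered when the platform annotation gives a probe set with its symbol and no other. This held for 30 of the 36 genes, of 8226 genes measured in this way, through 34 probe sets. PRDX5, SRXN1, MSRA and FTH1 have no probe set under their own symbol in the annotation used, and SOD2 and NCF1 share theirs with other symbols, so these 6 are not analysed here. The 10 arrays compare a cyclophosphamide-resistant subline of a human chronic myeloid leukaemia (CML) cell line, 5 arrays, with the sensitive line it derives from, 5 arrays. CML cells carry the BCR-ABL fusion kinase, and cyclophosphamide is a DNA-alkylating prodrug whose active forms are aldehydes. Both kinds of cell were grown in culture medium with no drug exposure stated, and the labels give neither the line's name, nor a clone, nor how resistance was obtained. With a single resistant subline set against a single parent, a difference linked to resistance and any other difference between these lines cannot be told apart. The labels do not state whether the 5 samples of a line were grown separately. The p-values therefore rest on the variation among these samples alone, which may be technical.

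Peroxiredoxins reduce hydrogen peroxide with a cysteine that is oxidised in the reaction. Thioredoxin reduces that cysteine again, and thioredoxin reductase recharges thioredoxin with electrons from NADPH, which comes from the pentose phosphate pathway, from malic enzymes and from NADP-dependent isocitrate dehydrogenases. Many of these genes can be switched on by NRF2, a transcription factor that KEAP1 holds in check until oxidants or other electrophiles modify it. In haematopoietic cells the same NADPH also feeds the phagocyte oxidase, and PRDX2 is a major protein of red cells.

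NRF2 binds DNA, with small MAF proteins, at the antioxidant response element, whose core TGACNNNGC was searched for on both strands in 300-base windows around the starts of genes (RefSeq, GRCh38.p14). Of 27305 genes with such a window 3702 (13.6%) held a match. Windows were given for 28 of the 36 listed genes, and 3 of them held a match, or 3 of 24 measured members (12.5%). These were ME1, PGD and TXNRD1. The matches that lie wholly upstream of the start are shown because they are the NRF2 core matches near genes discussed below. The capitals mark the match, each sequence reads 5′ to 3′ on the strand that holds the core, and the position of the match's middle base counts from the gene's start.

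ME1, chr6:83431160-83431208, minus strand, match centred at -133: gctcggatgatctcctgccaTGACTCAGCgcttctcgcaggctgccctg

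PGD, chr1:10398843-10398891, minus strand, match centred at -197: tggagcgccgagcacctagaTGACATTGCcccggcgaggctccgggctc

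TXNRD1, chr12:104215660-104215708, plus strand, match centred at -95: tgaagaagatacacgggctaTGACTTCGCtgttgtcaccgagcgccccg

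ME1 and TXNRD1 each held a further match nearer the start. Such a match is a description of the letters, not evidence of binding, and the other windows say nothing of elements farther away.

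Values are array signals on a linear scale. Differences are resistant minus sensitive on the log2(signal + 114.8) scale, which understates changes of dim genes, and were tested with limma over all 12558 probe sets with Benjamini-Hochberg adjustment. A gene was called, and is said to have risen or fallen, at an adjusted p under 0.05, by its brightest probe set. The control limit of an array is the 95th percentile of 32 control probe sets without a human target and lay between 319.7 and 739.8. Both groups gave similar arrays: 51% to 61.3% of probe sets lay above the limit on resistant arrays and 52.7% to 59.1% on sensitive arrays. Of 10 blood cell markers measured, 6 were above the limit on every array, among them PTPRC (CD45), the common leukocyte antigen. KIT was above it on no array, and the transcription factor gene SPI1 was above it on 0 resistant and 5 sensitive arrays. Of 12 measured markers of epithelium, fibroblasts and liver, 8 were above the limit on no array. The fibroblast marker LUM, a matrix proteoglycan gene, was above it on 0 resistant and 5 sensitive arrays.

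In resistant cells PRDX2, TXNRD2, PGD, ME1 and CYBA fell, and IDH1 and NQO2 rose. That is 7 of 30 genes (23.3%), where 8.4% of all 8226 genes were called. Of the 7, 2 rose, where 4.94% of all genes did, and 5 fell, where 3.46% did. Most of these genes are bright, and among the 5010 genes whose mean over all arrays was above the mean limit 11.7% were called. By the same filter 27 of the 30 genes remained, of which 2 rose and 4 fell. By probe sets, 9 of 34 were called against 7.41% of all 12558. The groups did not overlap in 8 of the 30 genes (26.7%), against 9.88% of all genes. Because the list was put together with earlier results of these data known, these shares describe it and were not tested. Its genes did not shift one way: the median difference was -0.02 over the 30 genes and 0.03 over all genes, with 15 differences above 0 and 15 below. At least a 2-fold difference was reached by 5 of the 7, though TXNRD2 fell short of it at a pseudocount of 459.2 (-0.87) and PGD passed it with arrays scaled to a common median (-1.04).

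**Figure D1:**
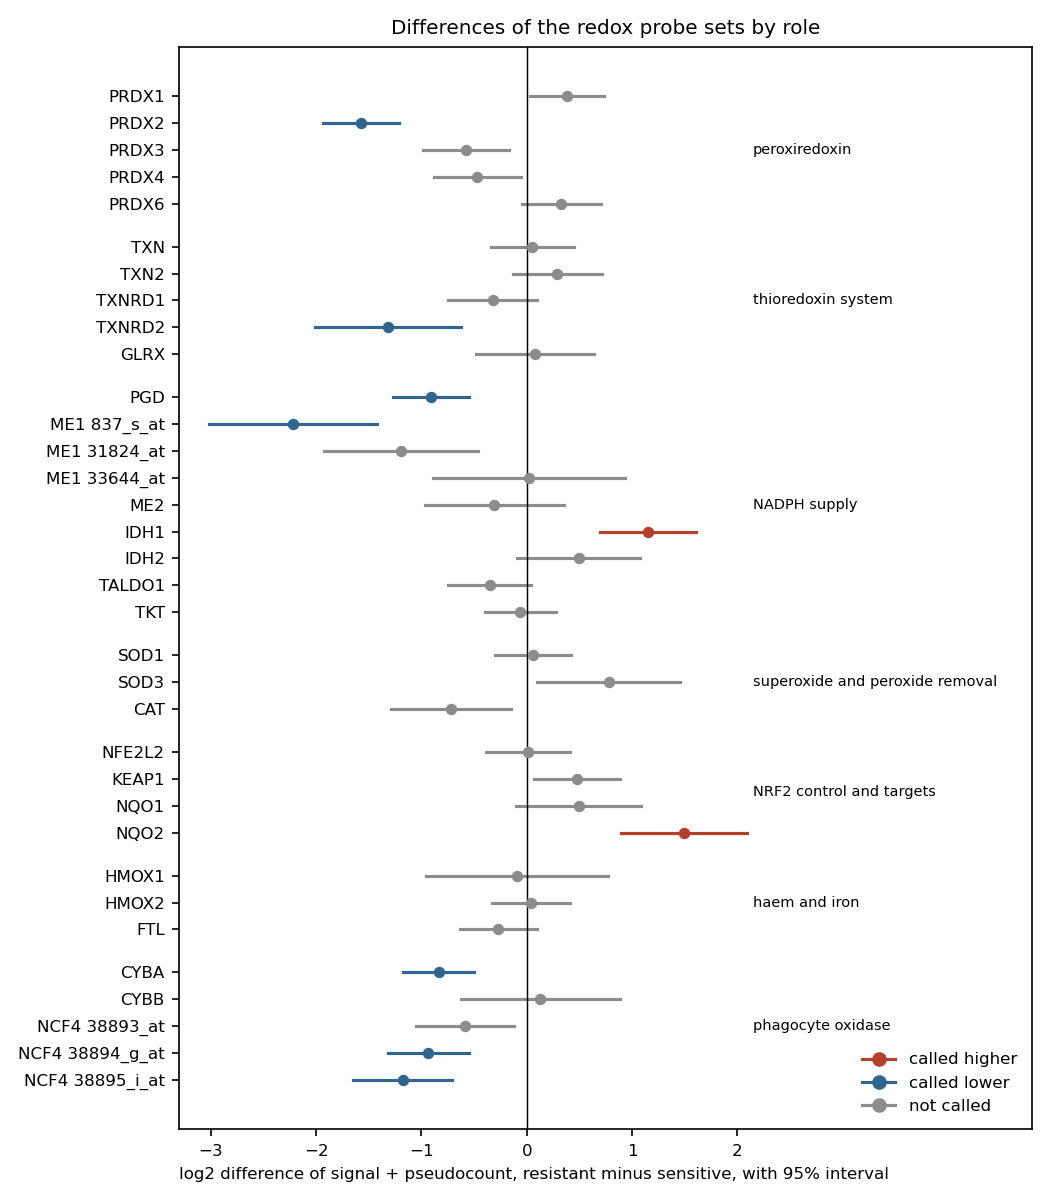
Log2 differences, resistant minus sensitive, of the 34 probe sets with their 95% intervals (not adjusted for the number of genes), ordered by role. Red points were called higher, blue points called lower, grey points not called. The called differences run from -2.22 (ME1) to 1.49 (NQO2).

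Among the peroxiredoxins PRDX2 fell and the other 4 measured members were not called. PRDX2, a cytosolic enzyme on chromosome 19, had signals of 11874, 10849.7, 10643, 15126 and 12000.5 on the resistant arrays, against 34459, 35893, 40478, 32677 and 36657 on the sensitive arrays. The highest resistant array lay far below the lowest sensitive array. The means were 12100 ± 1796 and 36030 ± 2911 (SD, n = 5 each; log2 difference -1.57, SE 0.17, limma adjusted p = 7.14e-05). Of the 30 genes, PRDX2 had the lowest p.

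PRDX1, its close cytosolic relative, lay the other way. Its signals were 68563, 59549, 60669, 66161 and 62393 on resistant arrays and 50548, 51366, 51785, 38359 and 52881 on sensitive arrays. The groups did not overlap, yet the gene was not called (log2 difference 0.38, 95% interval 0.03 to 0.73, limma adjusted p = 0.232). PRDX3, the mitochondrial peroxiredoxin, also had groups that did not overlap and was not called (log2 difference -0.58, limma adjusted p = 0.0958). It gave 12934, 12552, 9610.3, 12775 and 12422 on resistant arrays and 15910, 22159.8, 13748, 20204 and 18990.4 on sensitive arrays. It was called in 3 alternatives, namely with 4 times the pseudocount, after the filter on dim probe sets and with a trended, robust variance (adjusted p = 0.0324, 0.0376 and 0.0182).

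PRDX4, which works in the endoplasmic reticulum, averaged 15800 ± 2507 on resistant and 21980 ± 3501 on sensitive arrays and was not called (log2 difference -0.47, limma adjusted p = 0.201). PRDX6, which takes its electrons from glutathione in place of thioredoxin, averaged 9790 ± 1067 on resistant and 7797 ± 1153 on sensitive arrays and was not called either (0.33, adjusted p = 0.358). Of 7 erythroid and megakaryocytic markers measured, 3 rose (KLF1, TAL1 and ITGA2B), where 4.94% of all genes did. GATA1 (log2 difference 1.49, limma adjusted p = 0.14) and EPOR (0.07, adjusted p = 0.92) were not called. For GATA1 the sensitive arrays split, at 430.6, 510.5 and 968 on replicates 1 to 3 and 3800.2 and 3650.3 on replicates 4 and 5. Sensitive replicates 4 and 5 lay within the resistant range of 3008.9 to 4661.1. The summed signal of the list was 32670 to 44560 on resistant arrays and 6807 to 14690 on sensitive arrays. On resistant arrays it rests largely on the 3 called genes, with means of 8548 (KLF1), 10280 (TAL1) and 13400 (ITGA2B). Of that list GP9 and PF4 were above the limit on no array. The part of these markers in the PRDX2 difference was not tested. In bulk RNA, a change in the number of cells of a type and a change in RNA per cell cannot be told apart.

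**Figure D2:**
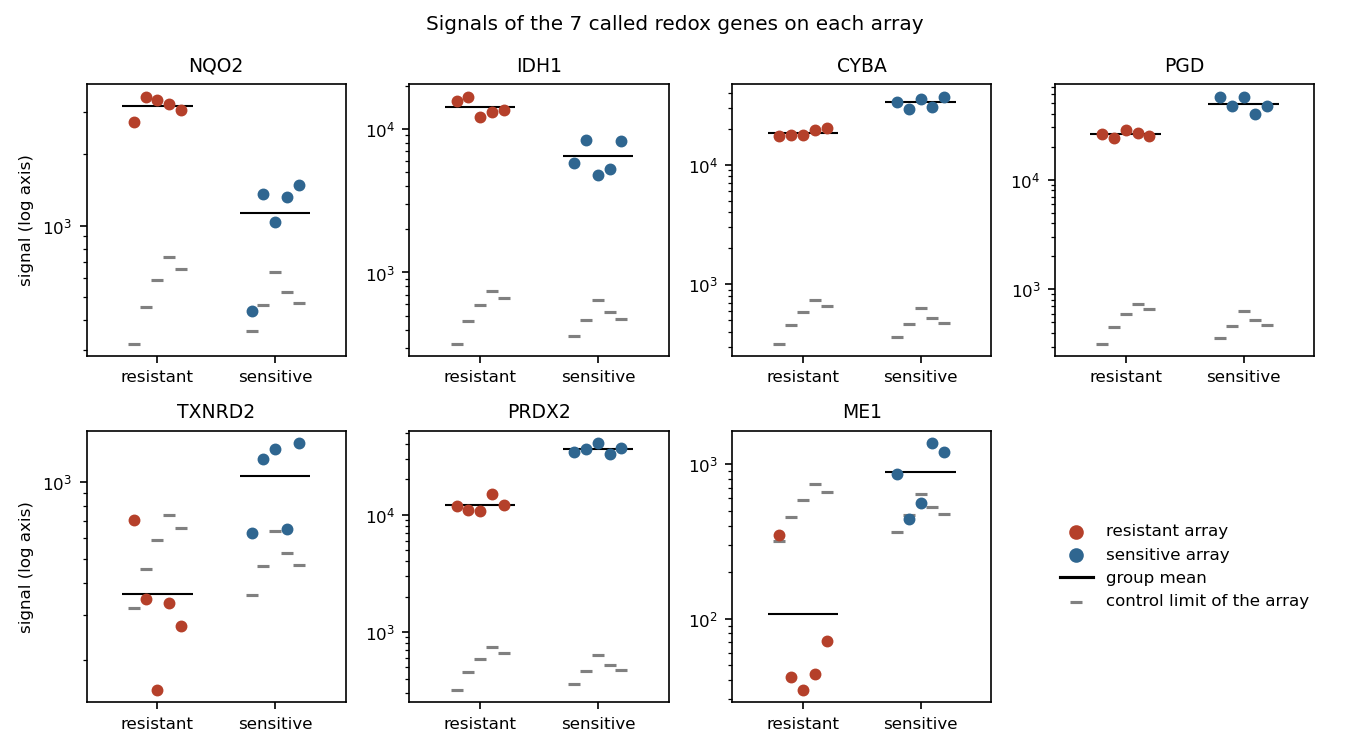
Signal on each array (log axis) of the 7 called genes, resistant left of sensitive, with group means as black lines and each array's control limit as a grey dash. The groups are apart in 6 of the 7, and in TXNRD2 resistant replicate 1 lies among the sensitive arrays.

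Of the thioredoxin pair and its reductases, only the mitochondrial reductase gene TXNRD2 was called. Its signals were 704.1, 347.2, 152.9, 335.9 and 272.7 on resistant arrays, against 631, 1228, 1344, 653.9 and 1410 on sensitive arrays. On the resistant side 1 of 5 arrays was above the limit, and on the sensitive side all 5 were. Resistant replicate 1 exceeded 2 sensitive arrays, so the groups overlapped (means 362.6 ± 205.9 and 1053 ± 381; log2 difference -1.32, SE 0.32, limma adjusted p = 0.0249). The call was lost without resistant replicate 2, 3 or 5 or sensitive replicate 2, 3 or 5, at adjusted p-values of up to 0.0678. The size of this difference depends on the pseudocount too, with -1.53 at a pseudocount of 28.7 and -0.87 at 459.2.

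TXN, cytosolic thioredoxin, averaged 61290 ± 10110 on resistant and 58920 ± 7561 on sensitive arrays (log2 difference 0.05, 95% interval -0.34 to 0.45). TXN2, the mitochondrial form, averaged 4639 ± 849.7 and 3749 ± 607.9 (0.29, interval -0.14 to 0.72). TXNRD1, the cytosolic reductase with the NRF2 core shown above, averaged 8329 ± 869.6 on resistant and 10610 ± 2144 on sensitive arrays (-0.33, interval -0.75 to 0.10). GLRX, a glutaredoxin that reduces proteins joined to glutathione, averaged 2431 ± 638.9 and 2292 ± 627.7 (0.08, interval -0.48 to 0.64). None of these 4 was called (lowest limma adjusted p = 0.434), and the intervals of all 4 lie within a 2-fold difference. The signs for TXN and GLRX turned under some alternatives.

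The genes grouped under NADPH supply did not move together: PGD and ME1 fell, IDH1 rose and 4 were not called. Not all of them form NADPH themselves. PGD, 6-phosphogluconate dehydrogenase of the pentose phosphate pathway, gave 26212, 23862, 28553, 26652 and 24815 on resistant arrays and 56513, 46923, 56788, 40008 and 46559 on sensitive arrays. Every resistant array was below every sensitive array, and the means were 26020 ± 1800 and 49360 ± 7204 (log2 difference -0.91, SE 0.17, limma adjusted p = 0.00459). TALDO1 and TKT, of the same pathway's non-oxidative branch, were not called. TALDO1 averaged 27120 ± 3704 on resistant and 34730 ± 5318 on sensitive arrays (-0.35, interval -0.74 to 0.04). TKT averaged 28970 ± 2082 and 30250 ± 2609 (-0.06, interval -0.40 to 0.27). PGD and the other measured members lie on 17 chromosomes in all, none of them chromosome 8.

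IDH1, the cytosolic NADP-dependent isocitrate dehydrogenase, gave 15713, 16726, 12104, 13047 and 13441 on resistant arrays, against 5812.9, 8339, 4762, 5217 and 8183 on sensitive arrays. The lowest resistant array was above the highest sensitive array (means 14210 ± 1934 and 6463 ± 1684; log2 difference 1.15, SE 0.21, limma adjusted p = 0.00439). IDH2, its mitochondrial counterpart, was not called, with overlapping groups at 7578 ± 2249 and 5290 ± 1506 (0.49, interval -0.09 to 1.08, adjusted p = 0.378). Whether IDH1 and IDH2 differ in their change was not tested.

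ME1, the cytosolic malic enzyme, was dim. Its best probe set, 837_s_at, gave 347.5, 42, 34.4, 43.4 and 71.2 on resistant arrays and 862.4, 438.6, 558.3, 1363 and 1191 on sensitive arrays. Only 1 resistant array and 3 sensitive arrays were above the limit, and the groups did not overlap (log2 difference -2.22, SE 0.37, limma adjusted p = 0.00229). The size of this difference depends on the pseudocount, with -3.01 at a pseudocount of 28.7 and -1.22 at 459.2. The other probe sets were above the limit on no array. Set 31824_at, at 63.3 ± 105.8 and 269 ± 127.9, missed the threshold (-1.19, adjusted p = 0.0519). It was called lower in 5 alternatives, namely with arrays scaled to a common median, after quantile normalization, at a pseudocount of 28.7, with a trended, robust variance and without resistant replicate 4 (lowest adjusted p = 0.0041). Set 33644_at showed 118.4 ± 148.5 and 118 ± 156.2 (0.02, adjusted p = 0.991). ME2, the mitochondrial malic enzyme, averaged 4473 ± 1496 and 5459 ± 1634 and was not called (-0.31, interval -0.97 to 0.35).

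**Figure D3:**
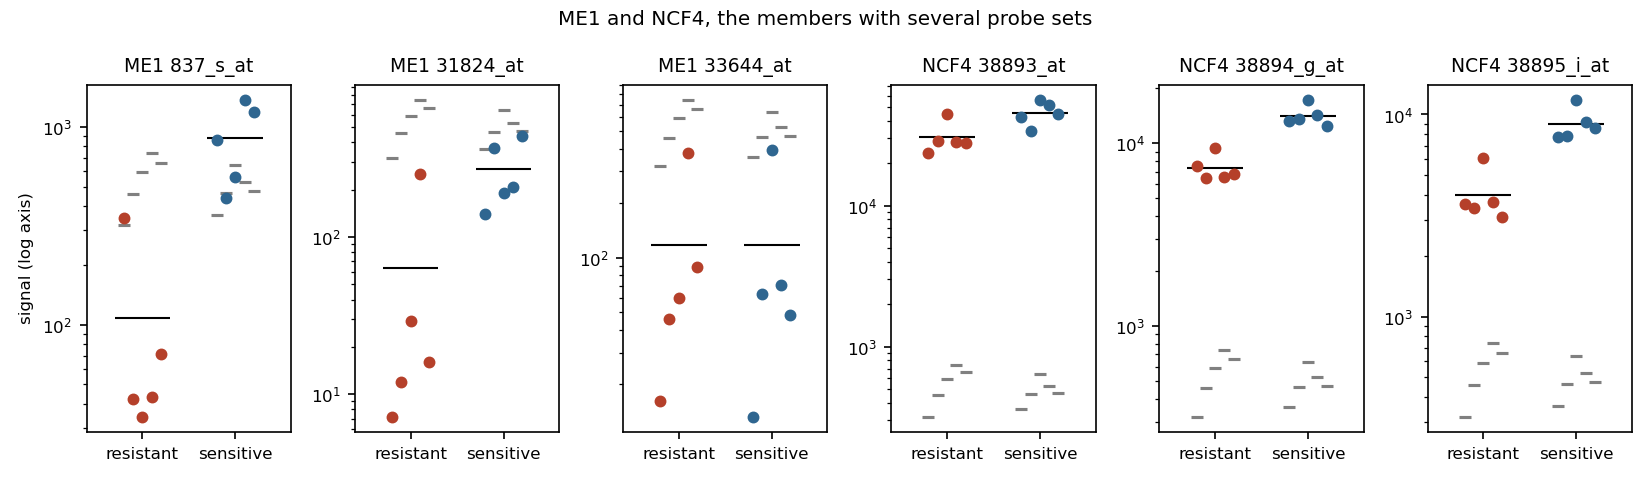
Signal on each array (log axis) of the 3 probe sets of ME1 and of NCF4, resistant (red) left of sensitive (blue), with group means as black lines and control limits as grey dashes. ME1 exceeds the limit only in 837_s_at, whereas all 3 sets of NCF4 lie far above it.

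The enzymes that remove superoxide and peroxide directly gave no call. SOD1, the cytosolic superoxide dismutase, averaged 39770 ± 5446 on resistant and 37950 ± 2894 on sensitive arrays (log2 difference 0.06, 95% interval -0.30 to 0.42). CAT, the peroxisomal catalase, averaged 9299 ± 2436 and 15640 ± 4468 (-0.72, interval -1.29 to -0.15, limma adjusted p = 0.147). Sensitive replicate 3 at 8348.8 lay among the resistant arrays for CAT, and without it the gene was called (-0.93, adjusted p = 0.0236). SOD3, the secreted dismutase, was 966.9 ± 328.9 and 519.5 ± 208.4, with 4 of 5 arrays of each group above the limit (0.78, adjusted p = 0.199).

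The transcript of NRF2 itself did not change detectably. NFE2L2, which encodes it, averaged 8599 ± 1544 on resistant and 8467 ± 1104 on sensitive arrays (log2 difference 0.01, 95% interval -0.38 to 0.41, limma adjusted p = 0.985). KEAP1, its inhibitor, averaged 2942 ± 327.4 and 2109 ± 463.2 (0.48, adjusted p = 0.19). Activity of NRF2 is set largely at the protein, which arrays do not measure.

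Among quinone reductases NQO2 rose. Its signals were 2729.8, 3465, 3363, 3238 and 3037 on resistant arrays, against 438, 1350, 1033, 1314 and 1481 on sensitive arrays. All resistant arrays were above all sensitive arrays, of which sensitive replicate 1 was lowest (means 3166 ± 291.6 and 1123 ± 416.4; log2 difference 1.49, SE 0.27, adjusted p = 0.00477). NQO2 takes its electrons from dihydronicotinamide riboside in place of NADPH. NQO1, which uses NADH or NADPH and is a standard NRF2 target, was 1308 ± 497.2 and 891.1 ± 335.3 and was not called (0.49, interval -0.10 to 1.09, adjusted p = 0.388).

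Haem and iron genes gave no call. HMOX1, the inducible haem oxygenase and another NRF2 target, was above the limit on 1 resistant array and 0 sensitive arrays (225.4 ± 191.2 and 238 ± 148.7). HMOX2, the constitutive form, averaged 2596 ± 268 and 2529 ± 395.1 (log2 difference 0.04, interval -0.33 to 0.42). FTL, the ferritin light chain, averaged 96250 ± 7960 and 116700 ± 17600 (-0.27, interval -0.64 to 0.10, limma adjusted p = 0.465).

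Of the phagocyte oxidase genes CYBA fell. NCF4 was not called by its brightest probe set, though its other sets were called lower. CYBA, the p22phox subunit of the membrane-bound part, gave 17445, 17667, 17676, 19593 and 20159.5 on resistant arrays and 33756, 29387, 35677, 30330.1 and 36989.9 on sensitive arrays. The groups were far apart (means 18510 ± 1268 and 33230 ± 3301; log2 difference -0.84, SE 0.16, limma adjusted p = 0.00512). CYBB, which encodes the catalytic partner gp91phox, was above the limit on no array (170.6 ± 105.3 and 158.3 ± 133).

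NCF4, the cytosolic p40phox subunit, was not called by its brightest probe set, 38893_at, at 30620 ± 8081 and 45630 ± 8501 (log2 difference -0.59, limma adjusted p = 0.152). In that set resistant replicate 3, at 44644, lay within the sensitive range. The other sets were called lower. Set 38894_g_at gave 7504.1, 6469.8, 9421.6, 6585 and 6816.4 on resistant arrays and 13197.7, 13521.9, 17202.3, 14231.2 and 12443.8 on sensitive arrays (means 7359 ± 1221 and 14120 ± 1839; log2 difference -0.93, limma adjusted p = 0.00562). Set 38895_i_at gave 3618.5, 3426.5, 6093.8, 3673.1 and 3098.8 on resistant arrays and 7720.2, 7809.5, 11748.1, 9192.3 and 8541.4 on sensitive arrays (means 3982 ± 1202 and 9002 ± 1647; -1.18, adjusted p = 0.00476). In both sets the groups did not overlap, and replicate 3 was the highest array of each group. With the probe sets averaged, NCF4 was called as well. Of 9 granulocyte precursor markers 8 fell beside these genes, where 3.46% of all genes did. MPO was not called and was above the limit on only 2 resistant arrays and 1 sensitive array. The summed signal of the list was 1532 to 2434 on resistant and 198400 to 395900 on sensitive arrays. PRG2 had the largest mean of the list on sensitive arrays, 146600 ± 59460. On resistant arrays 6 of the 9 were above the limit on no array, namely AZU1, CEBPE, ELANE, EPX, MS4A3 and PRTN3. The part of these markers in the CYBA and NCF4 differences was not tested.

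**Figure D4:**
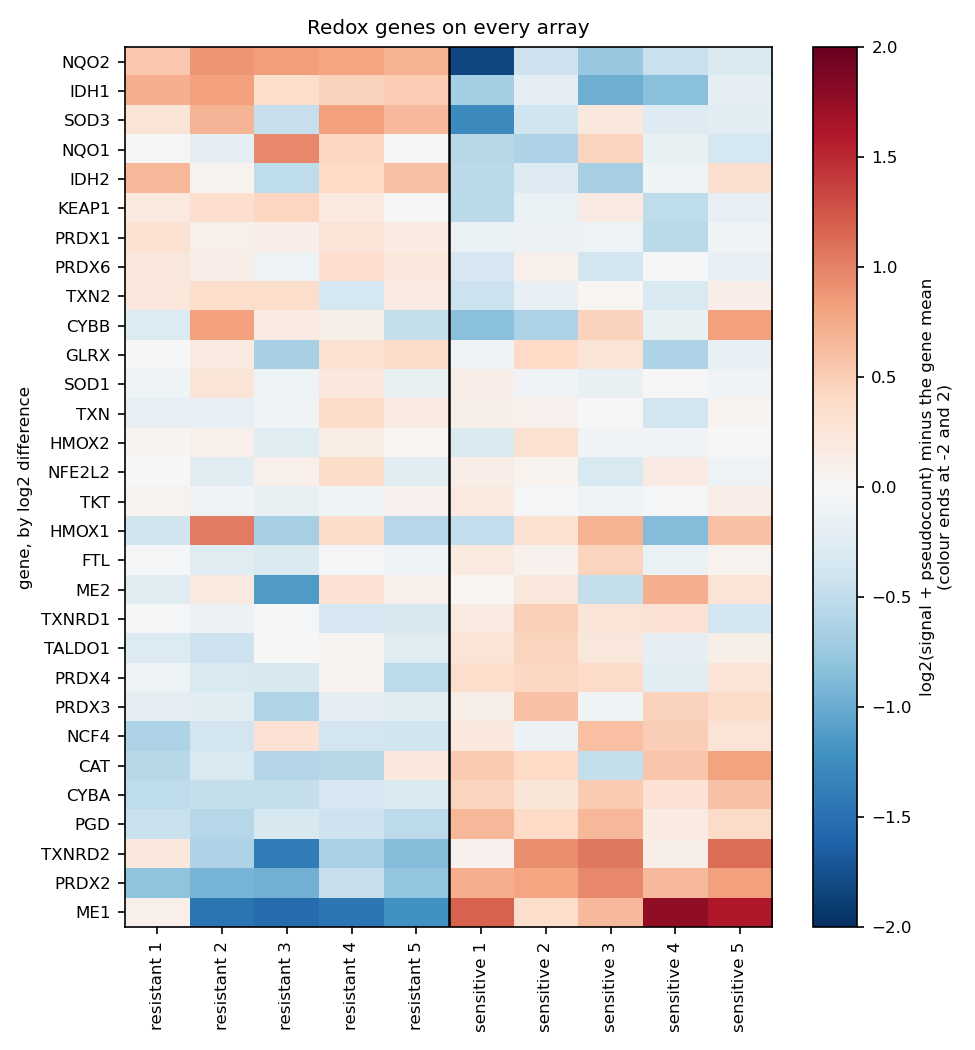
Log2(signal + 114.8) minus the gene's mean over all arrays, for the 30 genes (rows, ordered by difference) on the 5 resistant arrays, left, and the 5 sensitive arrays, right. NQO2 and IDH1 at the top and CYBA, PGD, PRDX2 and ME1 at the bottom separate the groups on every array, whereas most rows between them mix.

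Of the 23 genes not called, 18 had 95% intervals inside a 2-fold difference either way and 5 had intervals within 0.5 of 0 on the log2 scale. The 18 include CYBB, above the limit on no array, and HMOX1, above it on 1 resistant array only. At signals this dim the interval depends on the pseudocount. Lowering it from 114.8 to 28.7 raised the SE from 0.348 to 0.539 for CYBB and from 0.396 to 0.57 for HMOX1. For CYBB and HMOX1 the interval therefore cannot exclude a 2-fold difference. For the member genes replicates were similarly tight in both lines. Over the 25 genes above the limit on every array, the median SD of log2 values was 0.19 on resistant and 0.23 on sensitive arrays. The sensitive arrays were less alike in some cell type markers, such as GATA1 above. EPX was 4885.3, 3584.8 and 4038.9 on sensitive replicates 1 to 3, and 40734 and 38859.2 on replicates 4 and 5. CEBPE showed no such split.

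A wider list of redox, NADPH and NRF2 genes outside the 30 gave 5 rises and 2 falls among 41 measured genes, with a median difference of 0.08. Over all 8226 genes 4.94% rose and 3.46% fell, with a median difference of 0.03. CBR3, a carbonyl reductase, gave 616.5, 673.4, 355.6, 814 and 663.6 on resistant arrays and 41.1, 63.3, 74.6, 89.8 and 330.4 on sensitive arrays. It was above the limit on 4 resistant and 0 sensitive arrays and is given as at least 1.24-fold higher, the mean log2 signal of resistant arrays against the limit in sensitive arrays (limma adjusted p = 0.00284). BLVRA and BLVRB, which encode biliverdin reductases, both rose. BLVRA averaged 2769 ± 464.9 on resistant and 921 ± 548.2 on sensitive arrays (log2 difference 1.64, adjusted p = 0.0118), and BLVRB 5063 ± 889.4 and 1957 ± 725.8 (1.39, adjusted p = 0.00662). BLVRB is also an abundant red cell enzyme. Of the erythroid and megakaryocytic markers given above, KLF1, TAL1 and ITGA2B rose, and GATA1, EPOR, GP9 and PF4 were not called. The part of these markers in the BLVRB difference was not tested.

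NFE2, the haematopoietic relative of NRF2 that acts in erythroid cells and megakaryocytes, gave 7886 ± 2501 and 3130 ± 1502 (log2 difference 1.38, limma adjusted p = 0.0228). Its call was lost without resistant replicate 1 or 3 or sensitive replicate 1 or 2. TXNL4A, a spliceosome protein with a thioredoxin-like fold, fell to 4072 ± 615.2, against 8402 ± 1144 in sensitive cells (-1.03, adjusted p = 0.00292). ALDH1L1, a folate enzyme that forms NADPH, rose (1.37, adjusted p = 0.0327) and GPX1, a glutathione peroxidase, fell (-0.60, adjusted p = 0.0372). The call of ALDH1L1 was lost when any of 6 arrays was left out (adjusted p of up to 0.0842) and at a pseudocount of 28.7 (adjusted p = 0.0537), and that of GPX1 for any of 9 (up to 0.0858). Of the 7 genes only BLVRA, BLVRB, CBR3 and TXNL4A were called when resistant replicate 1, sensitive replicate 1 or sensitive replicate 2 was left out.

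**Figure D5:**
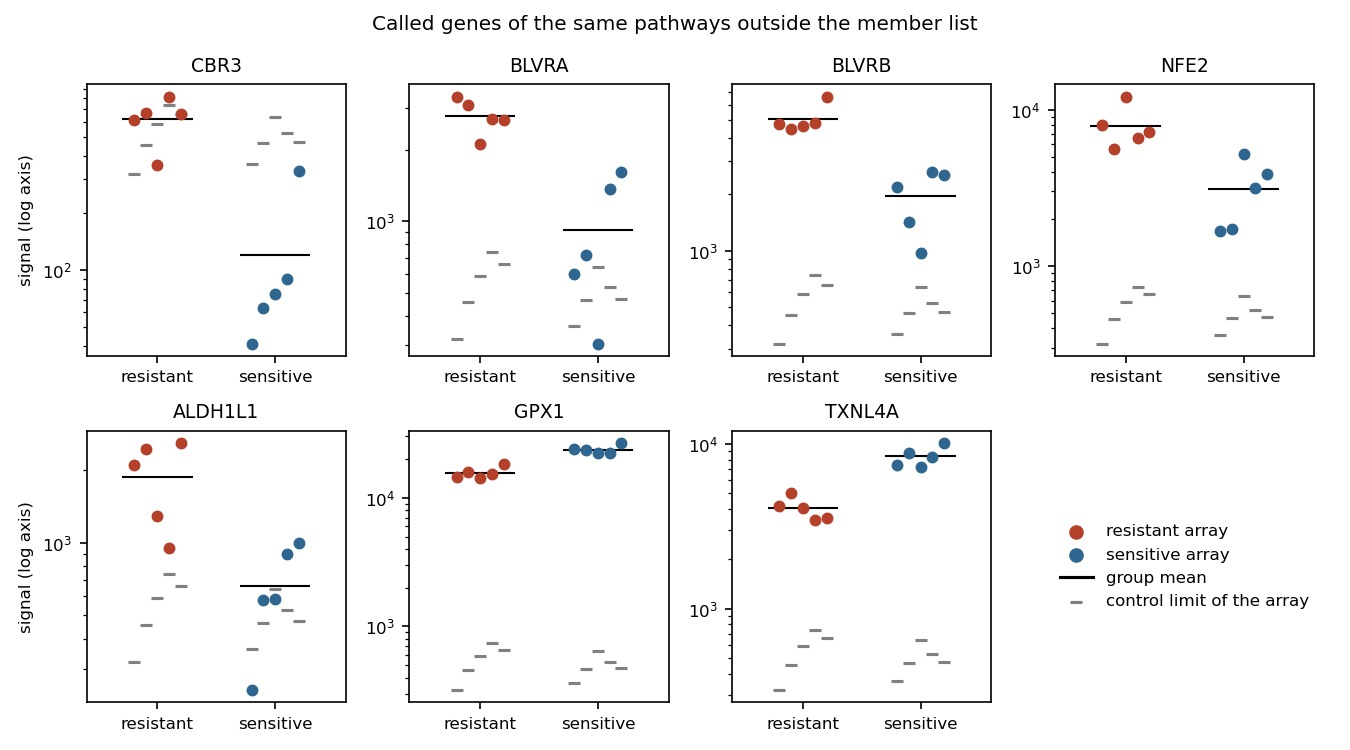
Signal on each array (log axis) of the 7 called genes of the wider list, resistant (red) left of sensitive (blue), with group means as black lines and control limits as grey dashes. CBR3 is below the limit on all 5 sensitive arrays, and only ALDH1L1 overlaps between groups.

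By group, the wider list gave no call in 3 genes of other NADPH oxidase parts, 1 fall in 5 of the thioredoxin system (TXNL4A) and 1 rise in 10 of NADPH supply (ALDH1L1). NRF2 and partner genes gave 1 rise in 6 (NFE2), other NRF2 targets 3 rises in 12, and glutathione peroxidases 1 fall in 5. The shares to read these counts against are 4.94% higher and 3.46% lower over all genes, and no group was tested. The targets that serve glutathione synthesis, GCLC and GCLM, were not called, at 4091 ± 1029 and 3626 ± 530 for GCLC (log2 difference 0.14) and 1323 ± 584.6 and 1183 ± 458.4 for GCLM (0.12). TXNIP, the inhibitor of thioredoxin, was not called either, at 7071 ± 2350 on resistant and 4651 ± 3523 on sensitive arrays (0.78, limma adjusted p = 0.326), though without sensitive replicate 4 it was. RPE, the epimerase of the pentose phosphate pathway, averaged 1828 ± 496.8 on resistant and 2890 ± 328 on sensitive arrays and was not called (-0.66, adjusted p = 0.08). It was called in 5 alternatives, namely after quantile normalization, at a pseudocount of 459.2, after the filter on dim probe sets, with a trended, robust variance and without resistant replicate 3. TXNIP and RPE were the only uncalled genes of the wider list to gain a call in any alternative run.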

How the data were processed

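Signals of 12625 probe sets were measured on 10 one-colour oligonucleotide arrays, 1 per sample, from biotin-labelled cRNA. The deposited values are intensity on a linear scale; per the submitters' processing notes the authors used MAS5, with version and settings not given in the sources used here. Trimmed by 2%, the mean was 2501.33 to 2501.51 on every array, so values came scaled. Here 67 control probe sets were left out of tests, arrays were scaled to a common trimmed mean, and log2(signal + 114.8) was fitted with limma 3.58.1 in R 4.3.3 on 12558 probe sets; the pseudocount is the 20th percentile of all signals. Groups and replicate numbers come from sample titles. The annotation assigns 1 symbol to 10943 probe sets, more than 1 to 545 and no symbol to 1070; 10934 were matched by Entrez identifier to GRCh38.p14, used for names and chromosomes. A gene with several probe sets was called by the brightest. All measured members are named, in array values where called in any probe set or where groups did not overlap in the brightest. Members and lists were chosen with earlier results of these data known. The fit was tested on simulated data. A comparison of protein sequences was planned and not made. The number of arrays limits the precision. Over all probe sets same-numbered arrays deviated together only weakly (correlations of 0.009 to 0.123, 1 of 5 over 0.1), so no pairing was used. The highest correlation was that of replicate 3. With the replicate number as a block the SE fell from 0.272 to 0.16 for NQO1 and from 0.303 to 0.175 for ME2. For TXNRD2 it rose from 0.319 to 0.371. Alternatives covered scaling, pseudocount, filter, variance model, replicate block, probe set choice, symbols and each array left out.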

Additional observations from a re-analysis of the deposited data

Results flagged for a closer look

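In 7 of 60 groups of 5 arrays, each a member gene in a line, the end array stood apart from the others by more than Dixon's 95% critical value on the log2 scale; chance flags about 1 in 20 groups. Sensitive replicate 4 was low in 3 of them, with signals of 38359.4 for PRDX1, 15946.4 for PRDX4 and 45831.4 for TXN. Over the 25 genes above the limit on every array it was the lowest sensitive array in 8, and sensitive replicate 3 was the lowest in 9. Resistant replicate 3 was low for PRDX3, at 9610.3, and for HMOX2, at 2140.4. It was the lowest resistant array in 11 of the 25 genes. Resistant replicate 4 was low for TXN2, at 3217.6. Resistant replicate 1 was high for ME1, at 347.5, against at most 71.2 on the other resistant arrays.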

How the results depend on the processing

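PRDX2, PGD, ME1 (837_s_at), CYBA, IDH1, NQO2 and the 2 further NCF4 probe sets kept their direction and their call under all 17 alternatives run on them, and TXNRD2 kept its direction and lost its call in 7. With a trended, robust variance 11 genes (3 higher, 8 lower) and 14 probe sets were called, adding CAT, NCF4, PRDX1 and PRDX3. Leaving out 1 array in turn gave 6 to 7 genes, 8 to 10 probe sets and 4 to 7 genes of the wider list. With the replicate number as a block, 6 genes, 8 probe sets and 5 genes of the wider list were called; TXNRD2 (adjusted p = 0.0943), GPX1 and ALDH1L1 were lost. Scaling to a common median gave a median difference of -0.07 over all probe sets, against 0.03 as reported, and turned the sign of ME1 33644_at (-0.039), GLRX (-0.049), SOD1 (-0.072), TXN (-0.08), HMOX2 (-0.085) and NFE2L2 (-0.116), none of them called. Quantile normalization turned ME1 33644_at (-0.026) and TKT (0.002). With 1 array left out, differences that changed sign, none called, ranged from -0.298 to 0.348 for ME1 33644_at, -0.364 to 0.07 for HMOX1, -0.065 to 0.255 for GLRX, -0.035 to 0.10 for TXN, -0.024 to 0.122 for HMOX2, -0.062 to 0.353 for CYBB and -0.077 to 0.073 for NFE2L2. The cause of these changes was not tested. Signal near the control limit restricts TXNRD2, ME1, SOD3, HMOX1 and CYBB.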
